A study of Mus musculus with 287 samples.

Results

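The clustered protocadherins were taken as the genes of the exon count table whose symbol places them in the alpha, beta or gamma array. The rule found 58 genes of 55359 in the table: 14 alpha, 22 beta and 22 gamma. The symbol Pcdha11 belongs to 2 gene IDs (ENSMUSG00000007440 and ENSMUSG00000102206), so the 58 genes carry 57 distinct symbols. They were followed in single cells of mouse cerebral organoids, grown from embryonic stem cells of the genotype MADM-11GT/TG;Emx1-CreER+/-. MADM cassettes can leave the daughters of a dividing, recombined progenitor green and red, and the Cre is driven from Emx1, a gene of the dorsal telencephalic lineage. All groups share this genotype, induction with 60 nM 4-hydroxytamoxifen on day 13 and collection on day 20, and no untreated or Cre-negative cells were analysed here. The labels place each cell in a clone of type SN or N, letters they do not explain, and give it a colour and 1 of 3 plates.

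Of the labelled cells, 86.97% had an exon count in at least 1000 genes and were kept, 90 on plate 1, 77 on plate 2 and 80 on plate 3. Clone 45 carries plates 2 and 3, and all its cells are counted on plate 3, although its red cells are labelled plate 2. The kept cells came from 46 SN clones (53.0% of the kept cells) and 22 N clones (47.0%), and 61.9% were green and 38.1% red. Their exon totals ran from 6171 to 13040432 counts with a median of 1517431, 1365828 in SN and 1887116.5 in N cells. No organoid, culture or animal is named, and clones can come from 1 organoid, so each p-value measures the spread between these clones and may be too small. Marker lists of neurons and of radial glia were counted in 100% of the kept cells and pluripotency markers in 5.67%, while choroid plexus markers were counted in 38.5% and mesenchyme markers in 53.8%. The cells of plate 3 stood apart in their mean: they held a mean of 11.2 isoforms (SD 12.8), against 6.72 for plate 1 (SD 6.83) and 7.19 for plate 2 (SD 7.27). The median was 5 on each plate, while the upper quartile was 17 on plate 3 and 11 on plates 1 and 2. Thinning each cell to 100000 exon counts left 65, 84 and 76 cells on plates 3, 1 and 2. Their means were 8.83, 3.55 and 3.61 isoforms and their medians 6, 3 and 2.5. Before thinning, 49 of the 58 members had their largest share of cells on plate 3. What sets plate 3 apart was not tested, and values by plate or without plate 3 are given beside many of the comparisons.

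Clustered protocadherins are cadherin-like proteins of the cell surface that bind their own kind on the membrane of another cell. In the alpha and gamma arrays, each isoform starts at a variable exon with its own promoter and is spliced to constant exons that the whole array shares, whereas beta genes lack constant exons. In neurons most isoforms are switched on by a choice of promoters that involves DNA methylation, CTCF and cohesin and differs from cell to cell, and the resulting sets of isoforms serve the self-recognition of neurites. The C-type isoforms, Pcdhac1 and Pcdhac2 at the end of the alpha array and Pcdhgc3, Pcdhgc4 and Pcdhgc5 at the end of the gamma array, are regulated apart from the others. Because an array shares its constant exons, a read there does not tell alpha or gamma isoforms apart, and how the counting treated such reads is not given in the sources used here.

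Each isoform was found in a minority of the cells. A member was counted in a median of 27.5 cells (11.1% of the kept cells), with a range from 3 cells for Pcdhb1 to 42.9% of cells for Pcdhgc4. The median over all genes with any count was 4.45% of cells. The 12 non-clustered protocadherins, genes that lie outside the arrays, had a median of 46.0%, from 2.02% for Pcdh12 to 68.0% for Pcdh10. The members together took 0.0296% of all exon counts, a median of 174.9 CPM per cell (CPM being the count over the cell's exon total, scaled to 1e6). Of the 2057 pairs of a cell and a detected isoform, 67.5% had at least 10 counts and 14.6% had 1 or 2, close to the 70.4% of all exon values above 0 that reached 10 counts. Pcdhga10 was counted in 0 of the kept cells, but in the GENCODE M21 annotation no exon base belongs to it alone, so this 0 sets no limit on the share of cells that use it.

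**Figure D1:**
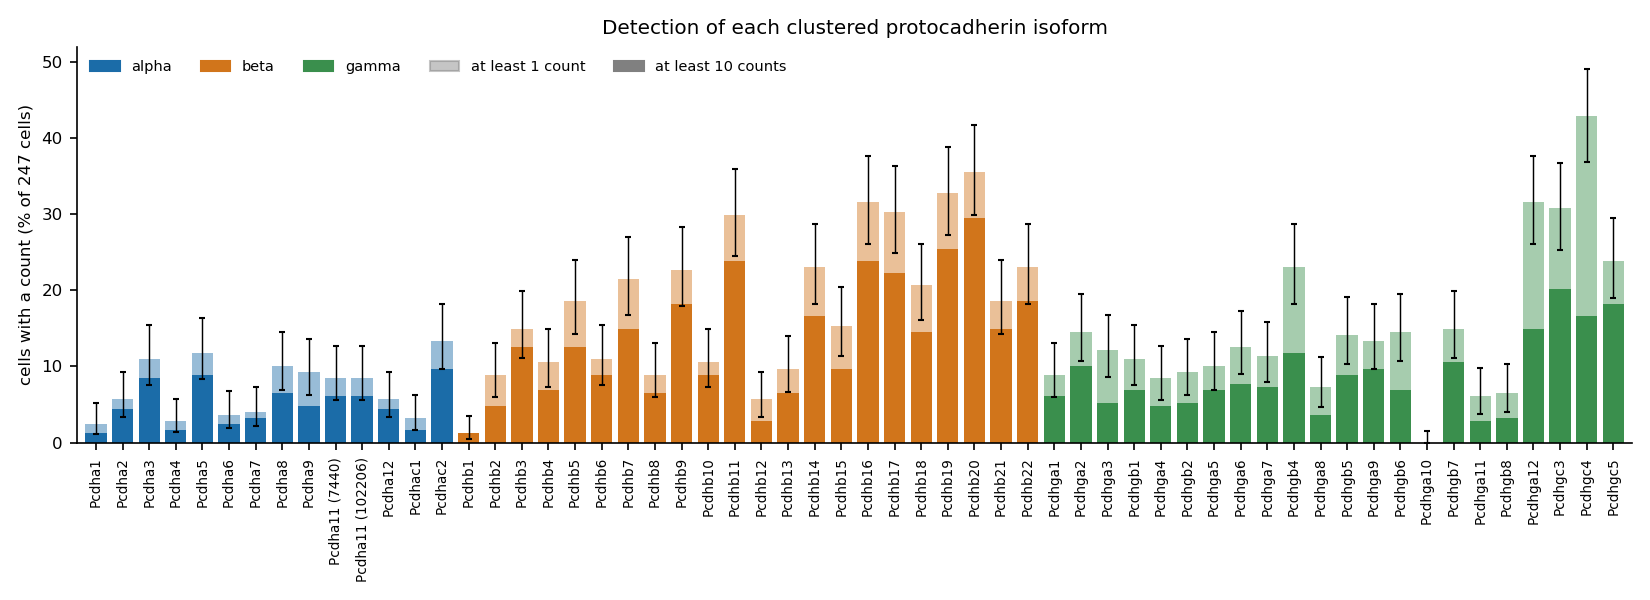
Share of the kept cells with a count of each member, in array order (pale bars: at least 1 count, full bars: at least 10 counts, error bars: 95% Wilson interval of the pale bars, counting error only). Pcdhgc4, Pcdhb20 and Pcdhb19 reach the highest shares, most alpha members stay under 12%, and the 2 bars named Pcdha11 carry the last digits of their gene IDs.

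The beta array held most of the signal. A cell had a mean of 4.05 beta isoforms (SD 4.41), 3.28 gamma isoforms (SD 4.13) and 1.00 alpha isoform (SD 1.83), and 63.3% of the members' counts were beta, 26.4% gamma and 10.4% alpha. At least 1 isoform was counted in 77.3% of cells for beta, 72.5% for gamma and 38.5% for alpha. Members with more exon bases of their own by annotation tended to be counted in more cells, least so within alpha. The exon bases that no other gene shares had a median of 3714 in the beta, 2587 in the gamma and 2475 in the alpha array, and over the members Spearman's rho between these bases and the number of cells was 0.708 (0.696 within beta, 0.566 within gamma, Pcdhga10 included, and 0.225 within alpha). Per kilobase of such exon, the mean level of the median member was 1.57 CPM in the beta, 0.815 CPM in the gamma and 0.565 CPM in the alpha array, so the order of the arrays was the same on that scale. These bases come from GENCODE M21, another annotation than the one behind the counts.

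Among the alpha isoforms the C-type Pcdhac2, which serotonergic axons need to tile their targets, was counted in the most cells, 33 (13.4%, 95% Wilson interval 9.67 to 18.2). Its count reached 10 in 24 of them. Pcdha5 followed in 29 cells and Pcdha3 in 27, and the intervals of all 3 overlap. The fewest were those of Pcdha4 in 7 cells and Pcdha1 in 6 (2.43%, 1.12 to 5.20). Pcdha4 has 404 exon bases of its own, against a median of 2475 in the array. Per kilobase of these its mean level was 0.509 CPM, against 0.565 CPM for the median alpha member. The other alpha C-type isoform, Pcdhac1, was counted in 8 cells of 8 clones (3.24%, 1.65 to 6.26), below the interval of Pcdhac2. Pcdha1 was the only member with intron counts.

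Of the beta isoforms, Pcdhb20 was counted in 88 cells (35.6%, 29.9 to 41.8), Pcdhb19 in 81 and Pcdhb16 in 78, and at least 10 counts were reached in 73, 63 and 59 of these. The fewest were those of Pcdhb12 in 14 cells and Pcdhb1, the first gene of the array, in 3 (1.21%, 0.411 to 3.51). Pcdhb12 has 1107 exon bases of its own, against a median of 3714 in the array. Along the array the number of cells rose with the position of the gene (Spearman's rho 0.646 over 22 genes, a description in which position and length were not separated). Pcdhb11 had the highest mean level per kilobase of the array at 4.82 CPM, and 1 cell reached 1458 CPM in total. Pcdhb21 and Pcdhb22 share exon bases by annotation, so reads could be given to either.

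The gamma array was led by Pcdhgc4, an isoform that neurons need for survival, in 42.9% of cells (36.9 to 49.1). Its detections were shallow, with at least 10 counts in 41 cells and a median of 1.28 CPM in the cells that had it. Pcdhga12 in 78 cells also fell to 37 at 10 counts. Pcdhgc3, which binds Axin1 and promotes dendrite branching, was counted in 76 cells (30.8%, 25.3 to 36.8) and kept 50 of them at 10 counts. It had the highest mean level per kilobase of all members, 7.81 CPM. Pcdhgc5 was counted in 59 cells, 45 of them with at least 10 counts. At 10 counts the order of these isoforms was therefore Pcdhgc3, Pcdhgc5, Pcdhgc4 and Pcdhga12, with intervals too wide to separate neighbours. Of the gamma members with a count, Pcdhga11 was found in the fewest cells, 15. It has 1256 exon bases of its own, against a median of 2587 in the array. Pcdhga10, without exon bases of its own, is left out of this order.

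C-type isoforms did not mark every cell. At least 1 of the 5 was counted in 59.1% of cells, all 5 in 3 cells, and 7 cells had C-type isoforms and no other. A cell held a mean of 1.14 of them (SD 1.22). The 53 other isoforms were each counted in a median of 27 cells, under the counts of Pcdhac2, Pcdhgc3, Pcdhgc4 and Pcdhgc5 and above the 8 cells of Pcdhac1.

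Sets of detected isoforms differed between cells. The kept cells held a mean of 8.33 isoforms (SD 9.49), with a median of 5, quartiles of 2 and 12 and a highest value of 50. No isoform was counted in 32 cells and exactly 1 in 26. The other 76.5% of cells had 2 or more, and 98.9% of their sets were distinct: 2 sets were found more than once. Isoforms missed by the counting can also make sets distinct, and their part in this share was not tested. In the cells with 2 or more isoforms the leading isoform held a median of 49.7% of the members' counts. In the 130 cells with 5 or more isoforms, a median of 12, the leading 3 held 76.3%. Numbers of isoforms of the arrays rose together over cells, with a Spearman's rho of 0.615 for alpha and beta, 0.727 for beta and gamma and 0.612 for alpha and gamma.

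Depth moved with these numbers. In 4 groups of about equal size, from the shallowest cells to the deepest, with median exon totals of 199455, 1054252, 2843618 and 6197952.5, the median number of isoforms was 1, 3, 7 and 14. Over the kept cells Spearman's rho was 0.722 with the exon total and 0.870 with the number of detected genes. In the 91.1% of cells deep enough to be thinned to 100000 counts, the mean was 5.09 isoforms (SD 5.84) and rho was 0.488 with the exon total before thinning and 0.708 with detected genes. The marker lists were scored from counts before thinning, as the mean log2(CPM + 1) over the genes of a list. For each of the 11 lists, this score had a rho above 0 with the thinned number. It was 0.490 for neurons, 0.393 for cycling cells, 0.387 for the oligodendrocyte lineage, 0.381 for GABAergic neurons and 0.348 for radial glia. The other lists ran from 0.322 for endothelium to 0.106 for pluripotency. The 5 cells with the most isoforms, 50, 50, 44, 38 and 37, all came from plate 3 and had 11451 to 16851 detected genes, against a median of 5316 over the kept cells. The part of depth in the number of isoforms was not tested further.

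**Figure D2:**
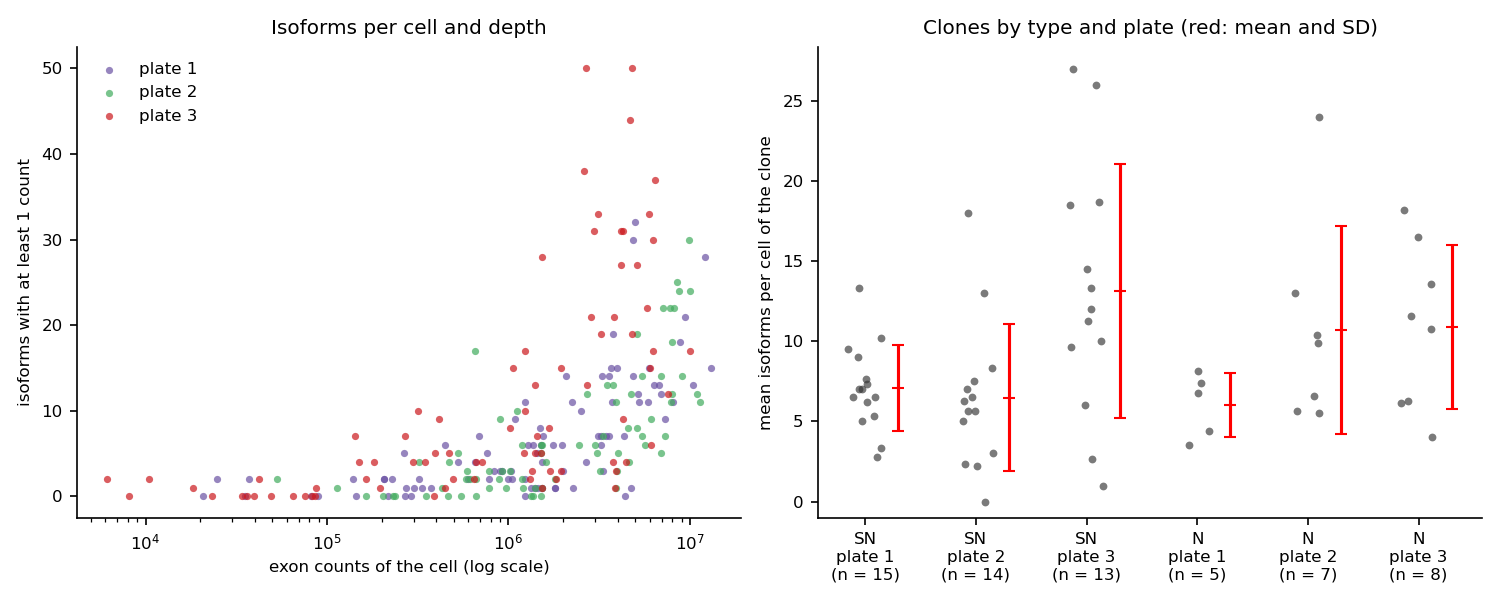
Left, isoforms with at least 1 count in each kept cell against its exon counts on a log axis, coloured by plate; right, the mean number per cell in each clone of at least 2 kept cells, by type and plate (points: clones, red: mean and SD). Cells under 100000 counts hold 2 isoforms or fewer, the highest numbers lie on plate 3, and SN and N clones overlap on every plate.

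SN and N clones did not differ in the number of isoforms by more than the spread between clones. The mean number per cell ran from 0 to 27 over 42 SN clones with a median of 7, and from 3.5 to 24 over 20 N clones with a median of 7.77. The groups overlapped over nearly their whole range. Clone means averaged 8.76 (SD 6.03, n = 42) in SN and 9.62 (SD 5.32, n = 20) in N, a difference of −0.86 (two-sided permutation p = 0.590, adjusted p = 0.909 over the 7 comparisons of isoform number, sharing and summed level). On plates 1, 2 and 3 the difference was 1.07, −4.26 and 2.24, so its direction was not shared by the plates. Without plate 3 it was −1.97 (permutation p = 0.187). Summed over the members, SN clones ran from 0 to 1458 CPM with a median of 277.9, and N clones from 57.9 to 838 CPM with a median of 279.6. The log2 difference was −0.23 (pseudocount 1 CPM, two-sided permutation p = 0.611, adjusted p = 0.909), with 0.34, −0.70 and 0.00202 on plates 1, 2 and 3.

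Green and red cells of a clone come from sister lineages, and their numbers of isoforms were compared within 45 clones that had both. Green cells averaged 10.2 isoforms (SD 11.4) and red cells 8.31 (SD 8.27), a mean difference of 1.90 ± 2.25 (SE, n = 45; two-sided sign-flip permutation p = 0.413, adjusted p = 0.909). Green was higher in 20 clones and lower in 20. The difference was 2.94 on plate 1 (14 clones), −2.62 on plate 2 (15 clones, unadjusted permutation p = 0.00967, higher in 3 clones) and 5.23 on plate 3 (16 clones), and it was 0.0644 without plate 3. The 31 SN clones averaged 4.49 (SD 15.5) and the 14 N clones −3.83 (SD 12.8), a gap within the spread (permutation p = 0.0895).

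Cells of 1 clone did not share isoforms more often than cells of different clones. Sharing was measured by the Jaccard index, the number of isoforms that 2 cells have in common over the number that either has. In the 87.04% of cells with at least 1 isoform there were 398 pairs of cells of 1 clone, with a mean index of 0.0981, and 7253 pairs from different clones of a plate, with 0.110. Pairs of a clone had a mean of 1.76 isoforms in common and 39.7% had none. Pairs from different clones had 2.34 in common and 32.2% had none. Clone 16 alone gave 91 of the 398 pairs, with a mean index of 0.0598 and 0.703 isoforms in common, so the pooled values lean on it. Over 59 clones the mean index among the cells of a clone was 0.110 (SD 0.0936) and that with cells of other clones of the plate was 0.115 (SD 0.0327). The difference of −0.0044 ± 0.0096 (SE) was positive in 21 clones and negative in 38 (two-sided sign-flip permutation p = 0.650, adjusted p = 0.909). On plates 1, 2 and 3 it was −0.0085, 0.0112 and −0.0165. The Jaccard index over all genes of the same cells was 0.333 within and 0.316 between clones, higher within in 29 of 59 clones.

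**Figure D3:**
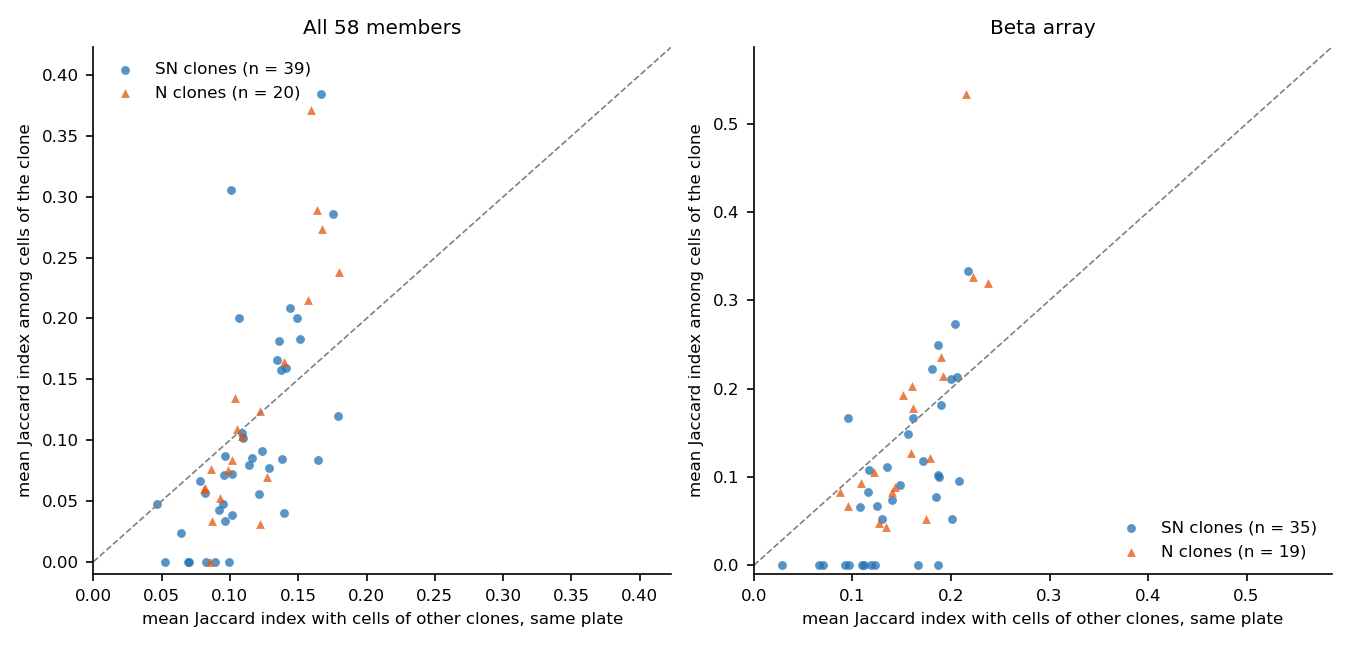
Mean Jaccard index among the cells of each clone against its mean index with cells of other clones of the plate, for all 58 members (left, 59 clones) and the beta array (right, 54 clones), with SN clones as circles and N clones as triangles. Clones lie on both sides of the dashed line of equal sharing, and 7 clones on the left and 11 on the right sit at 0 with 3 pairs of cells or fewer.

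Clones varied widely around equal sharing, and most rest on few pairs of cells. A clone had a median of 3 pairs, 21 of the 59 clones had a single pair, and the 7 clones at an index of 0 had 3 pairs or fewer. Clone 43 had the largest excess, with an index of 0.385 in its single pair of cells and 0.166 with other clones. Clone 42 followed with 0.371 and 0.160, also from a single pair. Clone 14, with 3 pairs, had 0.306 and 0.101. These 3 clones were named after their values were seen.

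Beta isoforms were shared less within clones than between them, in a comparison that did not pass the adjustment. The index for the beta array was 0.120 within (SD 0.108) and 0.150 between clones (SD 0.0454). The difference of −0.0306 ± 0.0114 (SE, n = 54 clones) was negative in 38 clones and positive in 16 (two-sided sign-flip permutation p = 0.00969, adjusted p = 0.0860 over 12 comparisons of an array). The alpha array gave 0.00741 (26 clones) and the gamma array −0.00187 (55 clones), both at an adjusted permutation p of 0.974. By plate, from 1 to 3, the beta value was −0.0251, −0.0027 and −0.0664. It was −0.0126 without plate 3 (permutation p = 0.368). Leaving out pairs of cells with neighbouring library numbers gave −0.0034 (permutation p = 0.856), over 37 clones instead of 54. All 11 clones at 0 for the beta array were SN clones. The 35 SN clones averaged −0.0505 and the 19 N clones 0.00611, a difference of −0.0566 (two-sided permutation p = 0.0143, adjusted p = 0.0860 over the same 12), while SN clones had a median of 3 cells with an isoform and N clones 4. The N mean includes clone 42 at 0.318, from a single pair of cells. Values by plate are not given here for the difference between SN and N clones. Whether the size of the clones takes part in that difference was not tested.

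Over all members, sharing within clones minus sharing between clones averaged −0.0117 for the 39 SN clones (SD 0.0731), while the 20 N clones were at 0.00976 (SD 0.0738). The types did not differ beyond the spread (difference −0.0214, two-sided permutation p = 0.295, adjusted p = 0.909).

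Colour did not move with the isoforms shared by more than the spread between clones. Within the 32 clones that had pairs of both kinds, cells of 1 colour had a mean index of 0.104 (SD 0.138) and cells of different colours 0.110 (SD 0.0641). The difference was −0.0059 ± 0.0219 (SE, n = 32; two-sided sign-flip permutation p = 0.832, adjusted p = 0.938), positive in 7 clones and negative in 22. Its median over clones was −0.0272. The largest value, 0.542, was that of clone 14 on plate 1, which had a single pair of cells of 1 colour. Between clones of a plate the index was 0.115 for cells of 1 colour (SD 0.0403) and 0.115 for cells of different colours (SD 0.0422), with a difference of −0.0002 ± 0.0025 (SE, n = 66 clones; permutation p = 0.938, adjusted p = 0.938). Each such pair of cells enters the values of both its clones, so these values, and those of the alpha array below, are not independent. Within clones the difference was 0.0230, −0.0365 and 0.0018 on plates 1, 2 and 3, and between clones it was 0.0034, −0.0023 and −0.0015. For the alpha array alone, cells of 1 colour shared less between clones (−0.0225, 55 clones, permutation p = 0.0287), which did not pass the adjustment over 12 comparisons (p = 0.115). Pcdha7 was counted in 10 cells of 10 clones and Pcdha4 in 7 cells of 7 clones, all of them green, where 61.9% of the kept cells are green. Both were named after their values were seen, and the split of cells was not tested. Their levels were tested by edgeR only with genes let in at a count in at least 3 sums of a clone and colour. Green over red, the log2 change was 1.75 for Pcdha4 (edgeR unadjusted p = 0.00231) and 1.76 for Pcdha7 (edgeR unadjusted p = 0.00472). Neither passed the adjustment over all genes.

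Some isoforms recurred in single clones. Among the 18 clones with at least 5 kept cells, isoforms were ranked by the share of a clone's cells that had them while under 20% of the other cells of the plate did. Clone 39, an N clone, led with Pcdhb9 in 6 of 9 cells, against 13 of 68 other cells. The counts in its 7 red cells were 85, 0, 17, 0, 61, 492 and 18, and in its 2 green cells 19 and 0. The cell with 492 counts had a total of 1517431, among the lowest of the clone. In clone 57 Pcdhb4 was counted in 3 of 5 cells, at 144.6 CPM in 1 red cell, with 2 counts in another and at 40.7 CPM (79 counts) in the green one. In clone 24 Pcdhb21 had 58 and 83 counts in red cells, 76 in the green one and 0 in the other two red cells. In clone 49 Pcdhga7 was counted in 3 of 4 green cells with 734 counts (153.8 CPM) in 1, 2 counts in another and 1 count in the last, so it rests on 1 cell above 3 counts. Pcdhb15 was counted in 3 of them at 54.1, 43.6 (54 counts) and 2.24 CPM (14 counts). The red cell of that clone, at 394166 counts in total, had neither. All of these are N clones, which have more cells per clone, and as the highest of many shares they carry no test.

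Isoforms that lie next to each other in an array were found together slightly more often than others. After effects of the cell, the isoform and the plate were removed, the residual correlation over the cells with an isoform averaged 0.0722 for 45 pairs of neighbours, 0.0041 for 420 other pairs of an array and −0.0339 for 861 pairs from different arrays, among the 52 members in at least 10 cells. The highest was that of Pcdhga2 and Pcdhga6 at 0.350, with both in 20 cells. The lowest was that of Pcdhb3 and Pcdhga6 at −0.298, with both in 5 cells. Values of this size in sparse counts are descriptions, and pairs share cells, depth and, where exons overlap, reads.

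Gene by gene, no member passed in the comparison of SN with N clones. EdgeR's quasi-likelihood test on clone sums, with plate as a term, could test 27 of the 58 members. The other 31 did not reach the minimum level of its filter in enough clone sums. Of the 27, 0 passed (Benjamini-Hochberg adjusted p under 0.05) and 0 had an unadjusted p under 0.05, while over all 11914 genes 0.00% passed and 2.06% had an unadjusted p under 0.05. DESeq2 passed 0 members and limma-voom 1. Of the members, 10 lay on the SN and 17 on the N side, with a median log2 change of −0.28, against −0.11 over all genes. In shares of cells, 27 of the 58 members were found in a larger share of SN cells and 30 in a larger share of N cells.

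Pcdhgc3 had the smallest p on the SN side. It ran from 0 to 234.5 CPM over 42 SN clones with a median of 1.94, and from 0 to 74.5 CPM over 20 N clones with a median of 2.41. Its log2 change was 1.42 ± 1.14 (SE; edgeR p = 0.217, adjusted p = 1). Pcdhgb4 ran from 0 to 509 CPM in SN with a median of 0.0812, and from 0 to 21.1 CPM in N with a median of 0.403 (log2 1.16 ± 1.24). Pcdhga12 ran from 0 to 222.9 CPM in SN with a median of 0.163, and from 0 to 40.2 CPM in N with a median of 1.04 (log2 0.90 ± 0.97). For all 3 the medians thus lay the other way from the log2 change. These values moved with the setting: limma-voom gave 0.54, 0.53 and 0.15 in the same order, and edgeR without the plate term 0.08, 2.48 and 1.14. On the N side stood Pcdhb17, from 0 to 120.9 CPM in SN with a median of 1.02 and from 0 to 124.2 CPM in N with a median of 16.1 (log2 −1.22 ± 0.84; edgeR p = 0.154, adjusted p = 1). It was counted in 27 of 42 SN and 18 of 20 N clones, and limma-voom, which passed 1.45% of all genes and put the median of all genes at −0.60, placed it at −2.68 (adjusted p = 0.0486). Pcdhb15 was at −1.17 ± 0.87, counted in 15 SN and 14 N clones. Pcdhac2 was at −1.22 ± 0.98 with edgeR but −0.03 with limma-voom, counted in 15 SN and 11 N clones. For all 6 the groups overlapped from 0 upwards.

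With genes let in at a count in at least 3 clone sums, edgeR tested 57 members and passed 4, where it passed 10.5% of all 29988 genes. On the SN side these were Pcdhb1 (log2 2.90, adjusted p = 0.00377), counted in 3 cells, and Pcdhac1 (log2 2.48, adjusted p = 0.00175), counted in 7 SN cells and 1 N cell. On the N side they were Pcdha6 (log2 −4.33, adjusted p = 0.00473), counted in 3 SN and 6 N cells, and Pcdha4 (log2 −2.86, adjusted p = 0.00804), counted in 1 SN and 6 N cells. The clone means of both lay the other way, at 1.93 CPM in SN and 0.742 CPM in N for Pcdha6 and at 0.318 and 0.291 CPM for Pcdha4. Over all genes the median log2 change in that fit was −0.27. The share of members that passed, 4 of 57, lay below that of all genes.

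**Figure D4:**
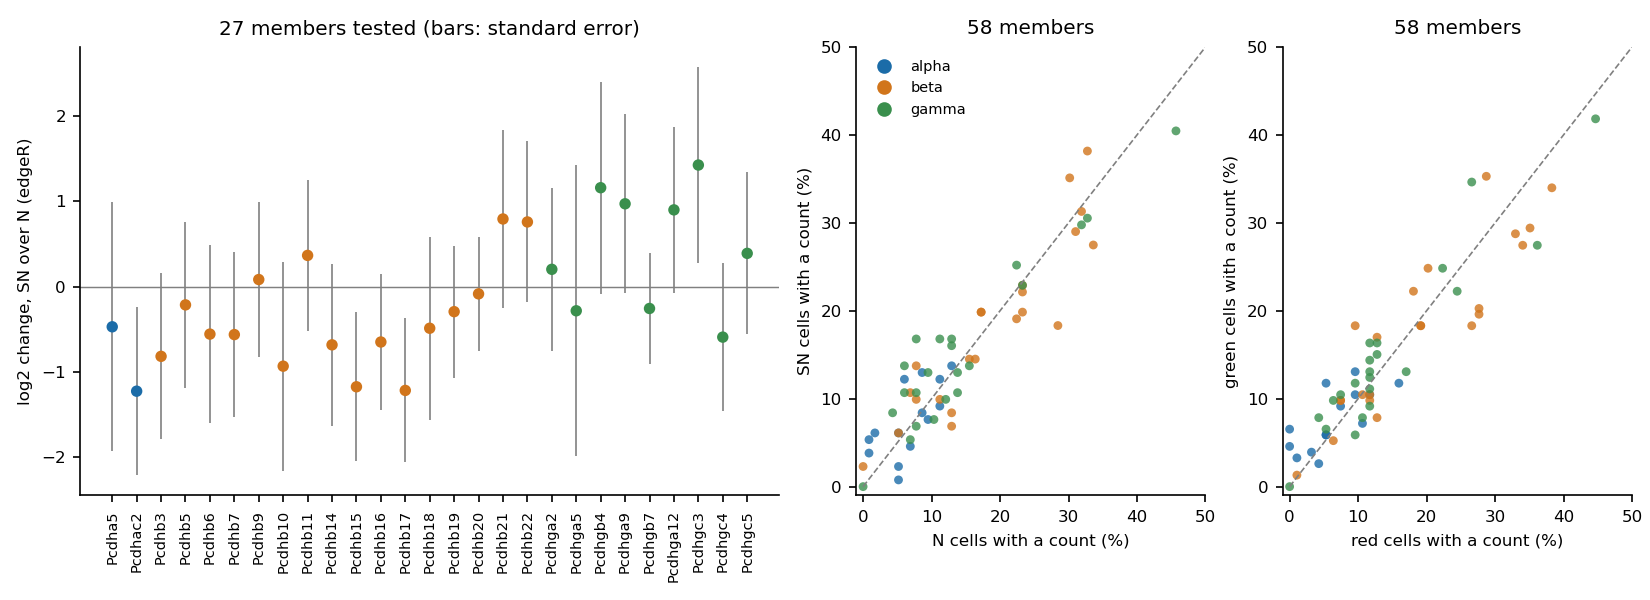
Left, log2 change of the 27 tested members in SN over N clones (edgeR, bars: standard error); middle and right, the share of cells with a count of each of the 58 members in SN against N cells and in green against red cells, coloured by array. Most bars on the left cross 0, and the members lie around the dashed lines of equal shares.

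Green and red cells gave the same picture with fewer testable members. Of sums per clone and colour in 45 clones, with the clone as block, edgeR could test 4 of the 58 members and passed 0, with 0 at an unadjusted p under 0.05. Over all 7437 genes 0.00% passed and 1.64% had such a p. Limma-voom and DESeq2 passed 0 of the 4 members. Pcdhb19 ran from 0 to 247.3 CPM in green with a median of 0.163 and from 0 to 106.9 CPM in red with a median of 0, and it was higher in green in 20 clones and lower in 13 (log2 1.18 ± 1.22; edgeR adjusted p = 1). The others lay on the red side, Pcdhb20 at −1.55 ± 1.12, Pcdhb16 at −1.50 ± 1.22 and Pcdhb11 at −0.95 ± 1.29. Pcdhb20 was higher in red in 23 clones and lower in 15. Without the clone as block, edgeR gave −0.34 for Pcdhb20 and −0.23 for Pcdhb11. In shares of cells, 31 members were found in a larger share of green cells and 26 in a larger share of red cells.

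Regulators of isoform choice did not pass either. Of 18 listed genes 17 could be tested between SN and N clones, 0 passed, and 7 lay on the SN side with a median log2 change of −0.09, against −0.11 over all genes. Ctcf, whose protein brings protocadherin promoters to their enhancers, averaged 100.3 CPM in SN (SD 71.4) and 144.9 CPM in N clones (SD 113.1), a log2 change of −0.61 ± 0.29 (edgeR unadjusted p = 0.0415, adjusted p = 1). The cohesin subunit Rad21 was at −0.44 ± 0.29 and the DNA methyltransferase Dnmt3a at 0.42 ± 0.36. Between green and red cells 0 of 17 passed, with 11 on the green side (median 0.22, against 0.18 over all genes). Tet2, which oxidises methylated cytosine, was at −1.03 ± 0.91, Smchd1, which silences clustered genes, at −1.03 ± 1.05 and Dnmt3a at 0.72 ± 0.69. The mean of Dnmt3a lay the other way, at 152.04 CPM in green and 156.97 CPM in red, and it was higher in green in 26 clones and lower in 18.

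Of the partners and effectors, which include kinases and the WAVE complex that link protocadherins to the cytoskeleton, 0 of 21 tested passed between SN and N clones (median −0.11) and 0 of 20 between colours (median 0.01). The kinase substrate Marcks averaged 543 CPM in SN (SD 224.5) and 470.5 CPM in N clones (SD 207.9), at 0.25 ± 0.18, while the kinase Prkca was at −0.98 ± 0.72 and the WAVE regulator Cyfip1 at 0.51 ± 0.51. Between colours Nckap1 and Brk1, subunits of that complex, were at −0.82 ± 0.69 and 0.64 ± 0.59, and Cyfip2 at 0.70 ± 0.65, with means of 183.3 CPM in green and 183.8 CPM in red. The non-clustered protocadherins had 7 of 10 tested on the SN side (median 0.24) and 1 of 8 on the green side (median −0.11), and 0 passed. Pcdh17 was at −0.70 ± 0.54, Pcdh15 at 0.95 ± 0.89 and Pcdh8 at −0.60 ± 0.59 in SN over N clones. Pcdh10 at −0.89 ± 0.83, Pcdh7 at 0.91 ± 1.12 and Pcdh19 at −0.76 ± 1.18 were those named between green and red cells.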

How the data were processed

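Single fluorescent cells were drawn by pipette from organoids and sequenced with SMART-Seq v3, per the labels' protocols. The authors deposited 2 tables of unscaled counts per gene and cell, 1 for exons and 1 for introns. STAR 2.7.9a, R 4.4.0 and build GRCm39 are named in the submitters' processing notes. The counting tool, annotation and use of molecular identifiers are not given in the sources used here, so counts are read as reads. Members matched the symbol rule through a table of IDs and symbols. Members, lists and comparisons were chosen with earlier results of these data known, and those the rule named were the C-type isoforms, the 3 members in most and 2 in fewest cells of each array, the 3 of smallest p per direction and test, and up to 5 recurrent isoforms. The context lists hold 18, 22 and 12 genes.

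Of 284 labelled cells, 247 with at least 1000 detected genes were kept (131 SN, 116 N; 153 green, 94 red). An isoform was detected at 1 or more counts. Values of clones (at least 2 cells) were compared with two-sided permutation tests of 100000 resamples (smallest p 1e-05). A pair of cells from different clones entered the values of both clones, so clone values that use such pairs are not independent. Thinning drew 100000 exon counts per cell and left out 22 shallower cells. Co-detection and excess sharing used residuals of a logistic model with cell and isoform effects, fitted per plate. Count sums were tested with edgeR 4.0.16 (TMM, filterByExpr), with DESeq2 1.42.0 and limma 3.58.1 as alternatives, and standard errors were derived as the log2 change over the square root of F. The scripts were tested on simulated data. Clone 45 carries plates 2 and 3 and was put on plate 3. Replicate numbers only name cells, and colours were paired by clone, since a clone holds cells of both. The 3 cells without a clone entered no comparison. No sequences or coordinates are given.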

Additional observations from a re-analysis of the deposited data

Results flagged for a closer look

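In 6 of 24 clones of 4 to 10 kept cells, 1 cell stood apart from the others of its clone in the number of isoforms by Dixon's criterion. Chance alone meets it in about 1 of 20 groups of normally distributed values; isoform numbers are skewed to the right, so the 6 clones cannot be set against that rate. Single cells lay above the rest with 30 isoforms in clone 3 (next 6), 30 in clone 34 (next 2), 31 in clone 45 (next 9), 22 in clone 62 (next 7) and 44 in clone 66 (next 5). Their exon totals were 4872707, 9897727, 4254395, 5796354 and 4699392, all above the median of the kept cells, and the part of depth was not tested. In clone 58 the lowest cell had 0 isoforms, with 13 in the next, at an exon total of 36316.

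Intron counts, outside the exon values compared above, held 1371 counts of Pcdha1 in 20 cells. The 2 unlabelled cells with at least 1000 detected genes held 9 isoforms at 1689914 exon counts and 32 isoforms at 5976683.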

How the results depend on the processing

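Of 120 alternatives to the 9 comparisons, 81 kept the direction and the side of the threshold; those that did not follow, the settings without plate 3 and all those of the beta array having been chosen after seeing the data. For isoforms per cell, SN minus N was 0.0258 in the alpha array alone, 1.07 on plate 1 and 2.24 on plate 3, and green minus red was −2.62 on plate 2. The summed level in SN over N was 0.0253 (log2) as a mean of cells, 0.34 on plate 1 and 0.00202 on plate 3. Sharing within clones minus between clones was 0.00741 in the alpha array, 0.0112 on plate 2, 0.00135 without plate 3 and 0.00644 in N clones set against other N clones only (0.00976 against clones of either type). It passed an unadjusted p of 0.05 at −0.0306 in the beta array and at −0.0280 as a correlation of log2(CPM + 1). For SN against N, this difference was 0.0259 in the alpha array, −0.0566 in the beta array (past the threshold) and 0.00681 on plate 1. Cells of 1 colour within a clone shared more by 0.0269 at 3 counts, 0.00443 without C-type isoforms, 0.0230 on plate 1, 0.0018 on plate 3 and 0.0143 as a correlation. Between clones, the same colour stood at 0.00093 at 3 counts, 0.00264 at 10 counts, 0.00117 thinned, 0.000319 with at least 2000 genes per cell, 0.00134 without C-type isoforms, −0.0225 in the alpha array (past the threshold), 0.00139 in the beta array, 0.00109 without clone 45, 0.00343 on plate 1, 0.000585 without plate 3 and 0.00176 as a correlation. The beta array's own difference was 0.000962 in N clones set against other N clones only (0.00611 against either type) and lay between −0.0664 and −0.0027 in the other settings on the Jaccard scale. It no longer passed thinned (−0.0251), on plates 1 and 2, without plate 3 and without pairs of cells with neighbouring library numbers. The share of tested genes that passed between SN and N clones went from 0 to 0.0168% with DESeq2, 1.45% with limma-voom, 10.5% with genes at 1 count in 3 sums and 0.0169% with cells of at least 2000 genes. Between colours it went from 0 to 0.0134% with DESeq2's size factors (1 gene), 3.03% with DESeq2 and 0.0134% with limma-voom (1 gene). Without the clone block (no replicate block) edgeR passed 0 genes between colours. No paired analysis was possible for SN against N because replicate numbers there only name cells. The cause of these changes was not tested.

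Most statements are limited by the count threshold, the filter of the gene tests and the few pairs of cells per clone. At 10 counts the mean was 5.62 isoforms per cell, against 8.33 at 1 count. Of the 58 members, 31 and 54 did not pass the filter of the tests between types and colours. A clone gave a median of 3 pairs of cells.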
